A study of Homo sapiens with 16 samples.

Results

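Transcripts of 7 Krüppel-like factors were followed across the HCC70 hairpin series: KLF3, KLF4, KLF5, KLF6, KLF10, KLF13 and KLF16. They were taken by symbol and make up 7 of the 11282 genes in the deposited table, and all 7 passed the filter on low values. HCC70 is an established human breast cancer line with a basal-like phenotype. Its cells were infected with short hairpin RNA (shRNA) constructs, and RNA from whole wells was counted by a 3′ tag method.

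The 16 libraries form 8 groups of 2. The targeted groups are KLF5, RBPJ, NFIB and FOXA1, each named for the transcription factor its hairpins are aimed at. Controls are the groups plko, shRFP, shLACZ and shLUC, read from their names as the vector backbone and as hairpins against genes that human cells do not carry. All groups share the cell line, the infection and the culture medium. Within every group, controls included, the labels give libraries 1 and 2 different shRNA identifiers, so the spread inside a pair contains any difference between constructs. The identifier of plko 2 is all zeros and that of plko 1 is not, so whether both plko libraries hold the same kind of construct is not clear from the labels. The labels do not say that libraries came from separate cultures, and the p-values measure only the spread between these samples. Some samples were sequenced a second time and cDNA was barcoded in batches; neither is assigned to libraries in the sources used here, so no value within a batch could be computed.

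Krüppel-like factors bind GC-rich and CACCC-type DNA elements through C-terminal zinc fingers that are closely alike across the family, while the rest of each protein recruits different partners. KLF5, KLF4 and KLF6 are best known as activators in epithelia, although KLF4 also represses. KLF3 represses through the corepressor CtBP, and KLF10, KLF13 and KLF16 recruit the SIN3 histone deacetylase complex. KLF5 is typical of proliferating basal epithelial cells and KLF4 of cells leaving the cycle to differentiate, and both have been studied in basal-like breast cancer.

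The promoters of 3 genes on which the results turn are printed with RefSeq starts on GRCh38.p14, from 250 bases before to 50 after each start. They are the targeted gene KLF5 (a pair of listed starts), KLF16, which stood highest with the KLF5 hairpins, and FGFBP1, the reported KLF5 target with the largest fall. Of the 7 KLF genes, 5 had a promoter entry. Capitals mark the CACCC element, which reads GGGTG on the opposite strand, and the GC box. The GC box searched was GGGCGG, and its reverse complement CCGCCC counts as the same element.
KLF5 promoter at chr13:73054726-73055025, plus strand: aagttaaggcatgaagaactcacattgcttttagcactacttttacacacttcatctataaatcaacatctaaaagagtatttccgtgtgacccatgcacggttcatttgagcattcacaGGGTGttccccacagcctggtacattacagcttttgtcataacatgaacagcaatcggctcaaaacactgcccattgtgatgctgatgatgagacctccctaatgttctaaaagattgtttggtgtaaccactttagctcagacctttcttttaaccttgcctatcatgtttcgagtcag
KLF5 promoter at chr13:73058755-73059054, plus strand: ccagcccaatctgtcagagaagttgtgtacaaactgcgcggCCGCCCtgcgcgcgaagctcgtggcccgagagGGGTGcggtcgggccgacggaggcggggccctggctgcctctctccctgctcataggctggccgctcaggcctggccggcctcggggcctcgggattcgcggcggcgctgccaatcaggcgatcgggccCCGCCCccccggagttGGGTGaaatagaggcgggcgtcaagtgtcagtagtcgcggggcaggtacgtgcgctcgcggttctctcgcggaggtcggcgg
KLF16 promoter at chr19:1863530-1863829, minus strand: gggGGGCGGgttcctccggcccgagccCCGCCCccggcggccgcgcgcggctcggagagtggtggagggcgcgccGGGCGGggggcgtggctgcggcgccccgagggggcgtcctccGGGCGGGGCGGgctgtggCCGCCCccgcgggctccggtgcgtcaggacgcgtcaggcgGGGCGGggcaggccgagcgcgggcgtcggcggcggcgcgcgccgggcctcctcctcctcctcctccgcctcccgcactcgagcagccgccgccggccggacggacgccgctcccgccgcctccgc
FGFBP1 promoter at chr4:15938691-15938990, minus strand: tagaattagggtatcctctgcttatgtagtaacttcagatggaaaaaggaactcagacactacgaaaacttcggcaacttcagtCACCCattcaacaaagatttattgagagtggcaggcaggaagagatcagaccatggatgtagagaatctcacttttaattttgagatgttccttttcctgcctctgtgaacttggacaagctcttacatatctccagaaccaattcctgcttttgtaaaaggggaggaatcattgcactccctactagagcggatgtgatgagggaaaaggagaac
The first KLF5 window held 1 CACCC element and 0 GC boxes, and the second held 2 of each. The KLF16 window held 0 CACCC elements and 7 GC boxes, among them an overlapping pair, and was 86.0% G or C. The FGFBP1 window held 1 CACCC element and 0 GC boxes and was 42.0% G or C. The CACCC element was present in 59.9% and the GC box in 45% of all 35116 listed promoters, so that these letters are common. The 3′ counts do not tell which KLF5 start was used.

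Values are the deposited normalized signal, which is a read count divided by a factor for each library. The whole libraries held 375713 (plko 1) to 3090666 reads (RBPJ 1), with a median of 1164801.5. Over the 16 libraries KLF6 had 160 to 1404 reads, KLF5 32 to 352, KLF3 26 to 186, KLF4 13 to 141, KLF13 14 to 120, KLF16 12 to 111 and KLF10 7 to 124, so single values of the rarer factors carry wide counting errors. Intervals on single values are exact 95% Poisson intervals and cover counting error only. Differences were tested with limma on log2(value + 1), adjusted by Benjamini-Hochberg over 10826 genes and called under an adjusted p of 0.05; log2 fold changes are on that scale, where changes of low genes appear smaller. The plko libraries stood apart from the other 6 controls, with 7.5% of genes called between them, so results are given also against the other controls and against plko alone. RBPJ, NFIB and FOXA1 transcripts differed from the controls by log2 -1.34, -1.89 and -1.41 with their own hairpins. None of these passed the adjusted threshold (limma adjusted p = 0.266, 0.2 and 0.257). Their unadjusted limma p were 0.000675, 7.39e-05 and 0.000202, where KLF5 with its own hairpins had 0.000224. The 10 basal-like epithelial markers summed to 5692 to 6557 with the KLF5 hairpins against 3894 and 5871 in plko and 6004 to 8709 in the other 6 controls, so that KLF5 1 lay below those 6. Among them the keratins KRT5 (2421 and 2271) and KRT6A (105.2 and 73.5) were lower in both KLF5 hairpin libraries than in the 6 controls without plko (2527 to 3706 and 329.0 to 1103), while plko 1 was lower still for both (2085 and 64.0). The keratins KRT17 (1024 and 1509) and KRT14 (74.6 and 59.5) were not lower, with 578.7 to 1329 and 19.3 to 66.7 in those 6 controls. ESR1 and PGR, the hormone receptors of luminal cells, reached at most 5.8 and 1.4 with the KLF5 hairpins.

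The 7 KLF transcripts did not move as a block with any hairpin pair. KLF5 fell with its own hairpins and was the single member called there. That is 1 of 7 members, lower, where 5.37% of all genes tested were called in either direction, 2.3% higher and 3.07% lower. The median log2 difference of the members was 0.04, against 0.05 over all genes. With the RBPJ, NFIB and FOXA1 hairpins limma called 0 of 7 members, where it called 0.0277%, 0.00924% and 0.00924% of all genes. At an unadjusted p under 0.05 the members counted 1, 0 and 1 with those hairpins, where all genes counted 5.48%, 6.66% and 5.1%. edgeR and DESeq2 also called 0 of 7 in each, but they called few or no genes of the whole table there. With so few genes called, 0 of 7 does not set the members apart from all genes. All of these comparisons share the same 8 control libraries. Both libraries of a pair lay outside the range of the 8 controls for 2 of 7 members with the KLF5 hairpins (16.3% of all genes), for 0 with the RBPJ hairpins (4.46%), for 0 with the NFIB hairpins (6.12%) and for 1 with the FOXA1 hairpins (5.07%).

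**Figure D1:**
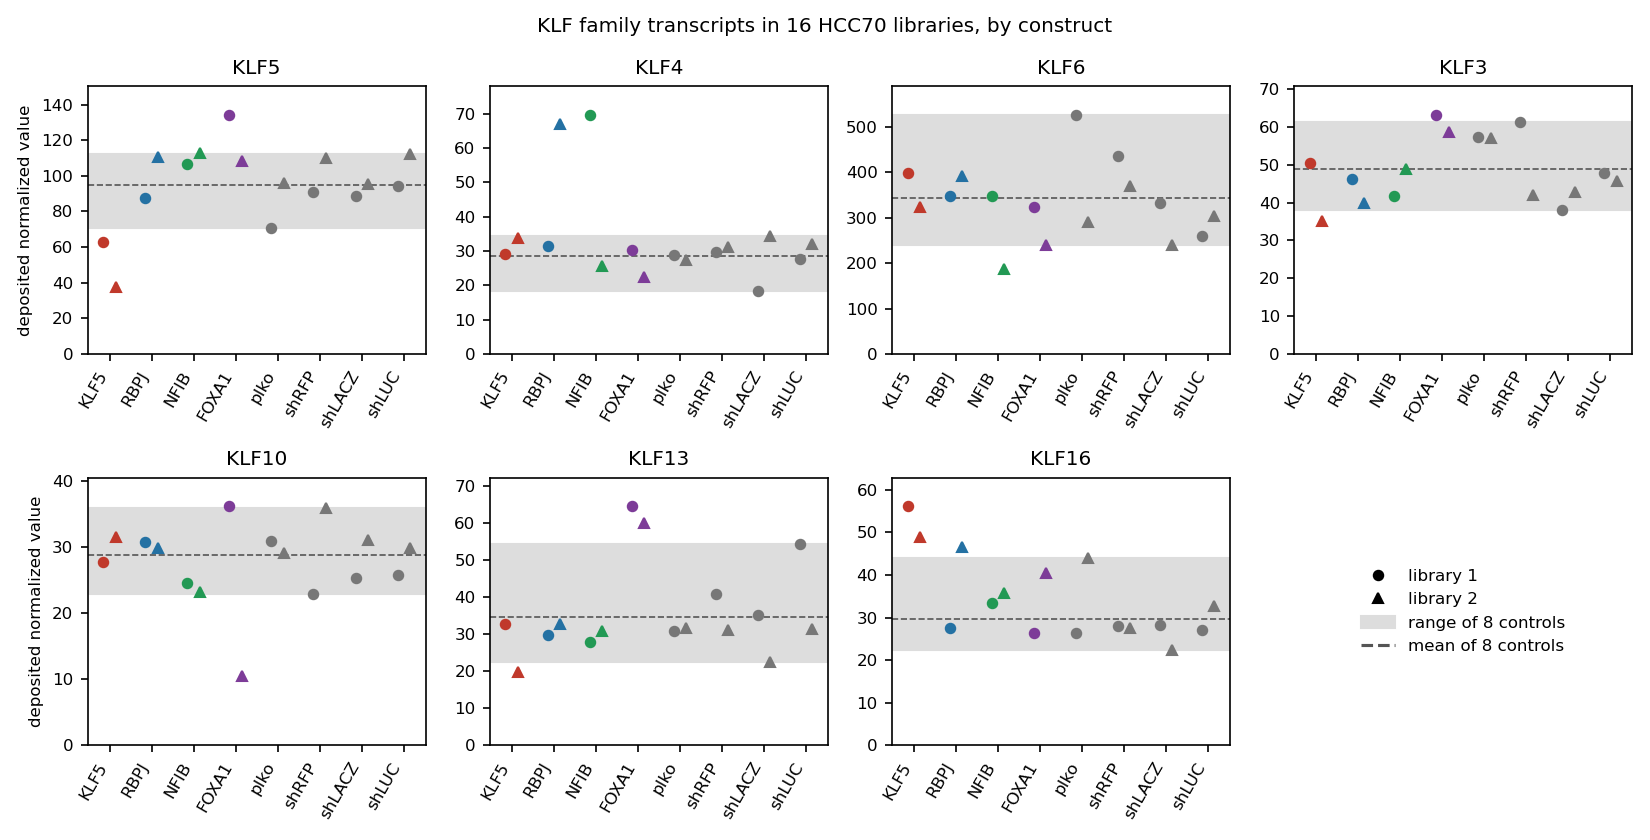
Deposited normalized signal (vertical axis, a panel for each KLF transcript) in every library, with groups along the horizontal axis from the targets to the controls and circles for library 1 and triangles for library 2; the grey band is the range and the dashed line the mean of the 8 controls. KLF5 reads 62.6 and 37.3 with its own hairpins, and KLF4 is high in 1 of 2 libraries of the RBPJ pair (66.9) and of the NFIB pair (69.7).

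KLF5 (ENSG00000102554), an activator that keeps basal epithelial cells proliferating, was lower with both of its hairpins. It read 62.6 and 37.3 in libraries KLF5 1 and KLF5 2 (88 and 32 reads; intervals 50.2 to 77.1 and 25.5 to 52.7), and 70.6 to 112.3 with a median of 94.9 (mean 94.8 ± 13, SD, n = 8) in the controls. Both hairpin libraries lay below all 8 controls, of which plko 1 was the lowest at 70.6. The counting interval of plko 1 (32 reads, 48.3 to 99.7) covers the value of KLF5 1. Of all genes 6.96% lay below in both libraries. The log2 difference was -0.94 (SE 0.21, 95% interval -1.39 to -0.50, limma adjusted p = 0.0122), which ranked 199 of 10826 genes by p. The exact permutation test of 2 libraries against 8 gave p = 0.0444 (2-sided), the smallest its 45 arrangements allow. In bulk RNA, fewer cells with KLF5 transcript and less of it per cell cannot be told apart.

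The control chosen and 1 hairpin library bore on this value. Against the 6 controls without plko the difference was -1.01 (limma adjusted p = 0.00198), and against plko alone it was -0.76 (adjusted p = 0.101). Without KLF5 2 it was -0.58 (limma adjusted p = 0.347) and without KLF5 1 it was -1.31, where the 1 hairpin library left is taken to vary as libraries of other groups do. Over all genes 581 were called, against 87 without KLF5 1 and 99 without KLF5 2.

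Fibroblast markers, of which 4 of 6 were in the table, summed to 35.5 to 43.2 with the KLF5 hairpins and 38.3 to 40.1 with the NFIB hairpins, and to 8.4 to 25.8 in the controls; most of it was COL1A1 (27.0 and 29.2 with the KLF5 hairpins), and DCN was at 4.3 and 5.8. Hormone receptor and luminal markers, of which 4 of 5 were in the table, summed to 264.9 to 308.5 with the KLF5 hairpins and 130.6 to 237.9 in the controls. The part of these marker sets and of the basal markers in the differences of the KLF5 comparison, the gene lists included, was not tested. Leukocyte markers (2 of 5 in the table) summed to 18.5 to 23.3 with the KLF5 hairpins and 8.8 to 34.3 in the controls, and 0 of 3 endothelial markers were in the table.

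With the other hairpins KLF5 stayed within or above the control range. It read 87.5 and 110.5 with the RBPJ hairpins, 106.6 and 112.6 with the NFIB hairpins and 134.3 and 108.1 with the FOXA1 hairpins. Only FOXA1 1 and NFIB 2 lay above the highest control, at 112.3. Set directly against the other targets, KLF5 differed with its own hairpins by log2 -1.16 from the NFIB pair (limma adjusted p = 0.0244), by -1.30 from the FOXA1 pair (adjusted p = 0.0124) and by -1.01 from the RBPJ pair (adjusted p = 0.0549). The members called in these comparisons numbered 1 of 7, 2 of 7 and 0 of 7, where 2.79%, 2.88% and 1.79% of all genes were called. The NFIB and FOXA1 calls were lost without KLF5 2 (limma adjusted p = 0.256 and 0.17) and when either library of the other pair was left out. In order of group means KLF5 ran from FOXA1 (121.2) through NFIB (109.6), shLUC (103.4), shRFP (100.6), RBPJ (99.0), shLACZ (92.0) and plko (83.3) to KLF5 (49.9), and only the last step separated neighbours that did not overlap.

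KLF4 (ENSG00000136826), a factor of growth arrest and squamous differentiation, was not called with the KLF5 hairpins. With the KLF5 hairpins it read 29.1 and 33.8, and in the controls 18.3 to 34.3 with a median of 29.2 (mean 28.6 ± 4.78, SD, n = 8). The log2 difference was 0.15 (SE 0.32, 95% interval -0.52 to 0.81, limma adjusted p = 0.85). Both hairpin libraries lay inside the control range, and the interval leaves room for changes of either sign.

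The high KLF4 values came from 1 library of each of a pair of other targets. KLF4 read 31.3 and 66.9 with the RBPJ hairpins, 69.7 and 25.7 with the NFIB hairpins and 30.3 and 22.5 with the FOXA1 hairpins. RBPJ 2 (141 reads, interval 56.3 to 78.8) and NFIB 1 (102 reads, interval 56.8 to 84.6) stood above the other 14 libraries, which ran from 18.3 to 34.3 with a median of 29.4. Their partner libraries lay within the control range, and the pairs differed within themselves by 2.13-fold and 2.71-fold. The log2 differences from the controls were 0.68 with the RBPJ hairpins (SE 0.32, limma adjusted p = 0.912) and 0.57 with the NFIB hairpins (adjusted p = 0.76). Leaving out RBPJ 2 or NFIB 1 brought them to 0.14 and -0.13. Neither was called against the 6 controls without plko or against plko alone.

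KLF6 (ENSG00000067082), an activator induced by injury and by growth signals, was the most deeply counted member. It read 399.5 and 323.2 with the KLF5 hairpins, and 239.9 to 527.3 with a median of 317.9 (mean 344.7 ± 96.5, SD, n = 8) in the controls. It read 349.1 and 393.1 with the RBPJ hairpins, 347.1 and 187.3 with the NFIB hairpins and 323.3 and 240.3 with the FOXA1 hairpins. No pair lay outside the control range, in which plko 1 alone reached 527.3 while plko 2 was at 290.0. The control SD of 96.5 was far above the 19.3 that counting alone gives. Its log2 differences ran from -0.39 with the NFIB hairpins to 0.15 with the RBPJ hairpins, and limma called none of them.

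KLF3 (ENSG00000109787), the CtBP-dependent repressor, stayed between 35.0 and 63.2 in the 16 libraries. It read 50.5 and 35.0 with the KLF5 hairpins, 46.2 and 39.8 with the RBPJ hairpins, 41.7 and 48.9 with the NFIB hairpins, 63.2 and 58.6 with the FOXA1 hairpins and 38.0 to 61.2 with a median of 46.7 (mean 49.0 ± 8.49, SD, n = 8) in the controls. KLF5 2 lay below the controls and FOXA1 1 above them, and no pair did so in both libraries. The log2 difference was -0.20 with the KLF5 hairpins (95% interval -0.67 to 0.27) and 0.33 with the FOXA1 hairpins (-0.14 to 0.79), neither called by limma. The control SD of 8.49 was close to the counting SD of 7.28.

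KLF10 (ENSG00000155090), a TGF-beta-induced repressor, was also near counting error in the controls, with an SD of 4.08 where counting alone gives 5.59. It read 27.7 and 31.5 with the KLF5 hairpins, 30.8 and 29.9 with the RBPJ hairpins, 24.6 and 23.2 with the NFIB hairpins and 22.9 to 35.9 with a median of 29.5 (mean 28.9 ± 4.08, SD, n = 8) in the controls. The FOXA1 pair was the exception, at 36.2 and 10.5. FOXA1 2 held only 7 reads (interval 4.2 to 21.7), and the pair differed within itself by 3.44-fold, the widest of all members. The log2 difference with the FOXA1 hairpins was -0.52 (limma adjusted p = 0.992), and it was 0.33 without FOXA1 2.

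KLF13 (ENSG00000169926), a SIN3-recruiting factor first studied in lymphocytes, stood highest with the FOXA1 hairpins. It read 64.5 and 60.1 there and 22.5 to 54.2 with a median of 31.4 (mean 34.7 ± 9.37, SD, n = 8) in the controls. Both FOXA1 libraries lay above all 8 controls, a position that 2.31% of all genes shared. The log2 difference was 0.87 (SE 0.27, 95% interval 0.31 to 1.42, unadjusted p = 0.00398), which did not pass after adjustment over all genes (limma adjusted p = 0.759). Without 1 library at a time it was 0.78 to 0.96 and was called in none of the 16 fits. It was 0.83 against the 6 controls without plko and 0.97 against plko alone (limma adjusted p = 0.493 and 0.162).

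With the KLF5 hairpins KLF13 read 32.7 and 19.8, with the RBPJ hairpins 29.8 and 32.7 and with the NFIB hairpins 28.0 and 30.8. Only KLF5 2 lay below the control range. The difference between the KLF5 and the FOXA1 pairs was log2 -1.26 (SE 0.34, limma adjusted p = 0.0477), and it is the second of the 2 members called in that comparison. This call was at the edge of the threshold: edgeR gave an adjusted p of 0.0505 and DESeq2 0.0303, and it was lost in 10 of 16 fits that left out 1 library (limma adjusted p = 0.0306 to 0.349).

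KLF16 (ENSG00000129911), the GC-box-binding SIN3 recruiter, was higher in value with both KLF5 hairpins. It read 56.2 and 49.0 there and 22.5 to 44.0 with a median of 27.8 (mean 29.6 ± 6.46, SD, n = 8) in the controls. Both libraries lay above all 8 controls, as did those of 9.31% of all genes. The log2 difference was 0.83 (SE 0.26, 95% interval 0.29 to 1.37), which missed the threshold (limma adjusted p = 0.066). It read 27.6 and 46.5 with the RBPJ hairpins, 33.5 and 35.9 with the NFIB hairpins and 26.3 and 40.6 with the FOXA1 hairpins, and RBPJ 2 and plko 2 (44.0) came nearest to the KLF5 pair.

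Whether KLF16 was called depended on the controls used and on the filter on low values. Against the 6 controls without plko, which averaged 27.7 ± 3.24 (SD, n = 6), the difference was 0.91 and passed (limma adjusted p = 0.0176), as it did without plko 2 alone (adjusted p = 0.0275). It also passed with all 8 controls when genes needed a value of at least 20 in 2 libraries (limma adjusted p = 0.048). Against plko alone it was 0.60 (limma adjusted p = 0.306). edgeR and DESeq2 gave 0.78 and 0.79 with adjusted p = 0.074 and 0.0739. Against the RBPJ, NFIB and FOXA1 pairs the difference with the KLF5 hairpins was 0.54, 0.58 and 0.67, and limma called none of them.

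The groups can also be put in order of their mean normalized signal. KLF16 ran from KLF5 (52.6) through RBPJ (37.0), plko (35.2), NFIB (34.7), FOXA1 (33.4), shLUC (29.9) and shRFP (27.8) to shLACZ (25.3), and only the first step separated neighbours without overlap. KLF13 ran from FOXA1 (62.3) through shLUC (42.7), shRFP (36.0), RBPJ (31.3), plko (31.2), NFIB (29.4) and shLACZ (28.8) to KLF5 (26.3), with gaps below FOXA1 and between plko and NFIB. The latter lay between values of 30.9 (plko 1) and 30.8 (NFIB 2), where 1 read in plko 1 is worth 2.2, and RBPJ (29.8 and 32.7) spanned it. KLF3 had its only gap between FOXA1 (60.9) and plko (57.2), although shRFP (41.9 to 61.2) overlapped FOXA1, and shLACZ was lowest (40.4). KLF10 had its only gap between shLUC (27.9) and NFIB (23.9), although shRFP (22.9 to 35.9) spanned it, with RBPJ highest (30.4) and FOXA1 lowest (23.4). For KLF4, with RBPJ highest (49.1) and shLACZ lowest (26.3), and for KLF6, with plko highest (408.6) and NFIB lowest (267.2), all neighbours overlapped. No test was run on these orders.

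**Figure D2:**
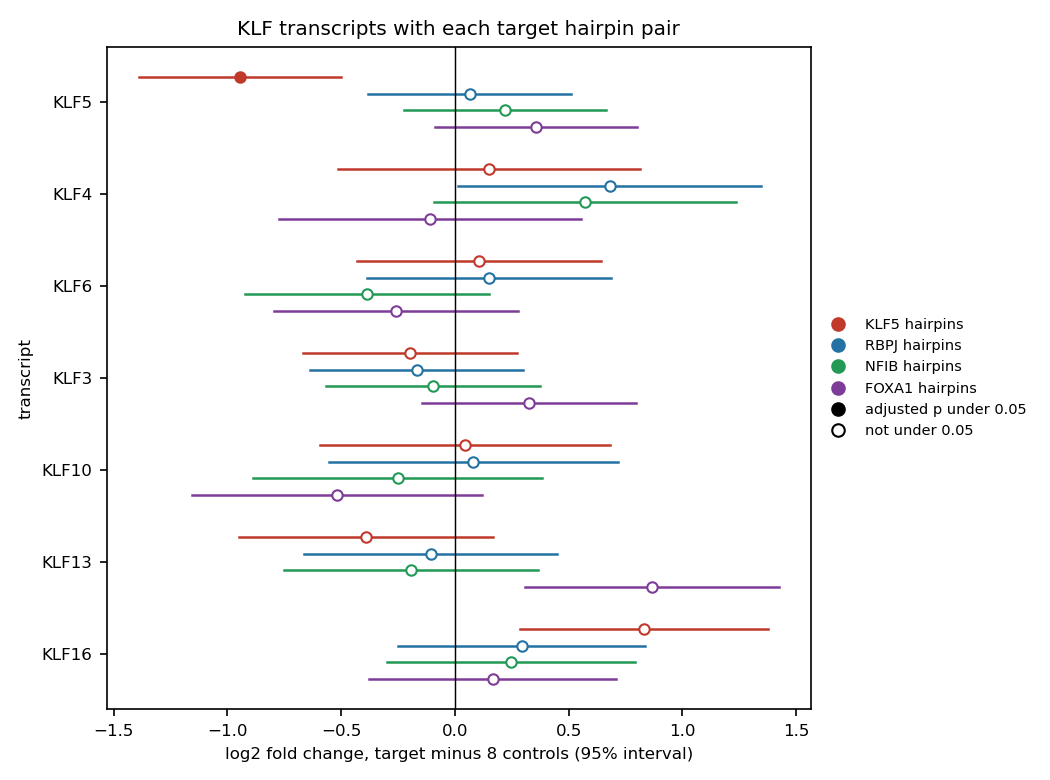
Log2 fold change of each KLF transcript (horizontal axis, log2(value + 1) scale) with each target's hairpins over the 8 controls, with 95% intervals; filled points have a limma adjusted p under 0.05. The only filled point is KLF5 with its own hairpins at -0.94, and the intervals of KLF16 with the KLF5 hairpins (0.29 to 1.37), KLF13 with the FOXA1 hairpins (0.31 to 1.42) and KLF4 with the RBPJ hairpins (0.02 to 1.34) also exclude 0 before adjustment over genes.

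Between plko and the other 6 controls limma called 0 of 7 members, with 0 at an unadjusted p under 0.05 and 0 by edgeR and by DESeq2. Of all genes 7.5% were called by limma and 23% had an unadjusted p under 0.05. Both plko libraries lay outside the range of the other 6 controls for 0 of 7 members, and for 22.3% of all genes. The log2 differences of plko from the others were 0.32 for KLF3, 0.30 for KLF6, 0.30 for KLF16 and -0.25 for KLF5, and the other 3 were within 0.14 of 0.

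Of 18 further KLF and SP genes, whose zinc fingers bind the same elements, 11 were in the table and 10 were tested. With the KLF5 hairpins 0 of 10 were called by limma, edgeR or DESeq2, where limma called 5.37% of all genes. An unadjusted limma p under 0.05 was reached by 0 of 10, and by 20.1% of all genes. Their median log2 difference was 0.04 against 0.05 over all genes. SP2 and SP3 had the largest differences, at 0.47 (limma adjusted p = 0.389) and 0.38 (adjusted p = 0.475). KLF2 was not tested, with values of 0.7 and 8.2 with the KLF5 hairpins and at most 4.4 in the controls. KLF9, a glucocorticoid-induced repressor, read 45.5 and 50.2 with the KLF5 hairpins, 110.3 and 60.7 in plko, and 32.3 to 49.7 in the other controls. It rose in plko over those controls by log2 1.13 (SE 0.25, limma adjusted p = 0.0081), a call that was lost without plko 1 (0.70, adjusted p = 0.38).

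Among 11 coactivators and corepressors through which these factors act, 1 rose with the KLF5 hairpins and 0 fell (2.3% and 3.07% of all genes), with a median log2 difference of 0.30 against 0.05 over all genes. HDAC2, a deacetylase of the SIN3 complex, read 349.8 and 385.0 with the KLF5 hairpins, 289.0 and 291.8 in plko and 164.0 to 215.6 in the other controls. Its log2 difference was 0.81 (SE 0.21, limma adjusted p = 0.0252). HDAC2 was also called higher in plko than in the other controls, by 0.63 (limma adjusted p = 0.0226), a call lost without either plko library, and over plko alone the KLF5 difference was 0.34 (adjusted p = 0.378). EP300, the acetyltransferase that KLF5 recruits, read 80.3 and 72.3 with the KLF5 hairpins and 32.4 to 68.8 with a median of 47.3 in the controls (log2 0.70, limma adjusted p = 0.0973). KAT2B differed by 0.47 (limma adjusted p = 0.582). The HDAC2 call was lost without either KLF5 library. SIN3B, a scaffold of the SIN3 complex, was called lower in plko than in the other controls (-0.96, limma adjusted p = 0.0262), but not with edgeR (0.0946) or DESeq2 (0.0877).

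Of 10 regulators of KLF5 protein stability, limma, edgeR and DESeq2 called 0 with the KLF5 hairpins, where limma called 5.37% of all genes. Of the 10, 3 had an unadjusted p under 0.05, as had 20.1% of all genes. The largest difference was that of BAP1, a deubiquitinase that stabilises KLF5 (log2 0.79, limma adjusted p = 0.101). BAP1 read 39.1 and 44.3 with the KLF5 hairpins and 14.1 to 32.8 with a median of 23.4 in the controls. WWP1, a ubiquitin ligase for KLF5, read 97.4 and 82.8 with the KLF5 hairpins and 83.5 to 161.1 with a median of 121.5 in the controls. KLF5 1 thus lay inside the control range of WWP1. WWTR1, also on this list, read 177.7 and 151.7 with the KLF5 hairpins and 80.0 to 147.0 in the controls.

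Of 20 transcripts reported elsewhere as KLF5 targets 19 were tested, and 2 rose and 1 fell with the KLF5 hairpins, where 2.3% of all genes rose and 3.07% fell. Their median log2 difference was -0.16, against 0.05 over all genes. FGFBP1, which releases fibroblast growth factors from the matrix, had the largest difference and read 15.6 and 10.5 (22 and 9 reads) with the KLF5 hairpins and 48.3 to 101.5 with a median of 57.3 in the controls. Its log2 difference was -2.24 (SE 0.27, limma adjusted p = 0.000125), and -2.36 against plko alone (adjusted p = 0.00207). It was called in all 16 fits that left out 1 library. Both hairpin libraries lay below every other library of the series, where 6.96% of all genes lay below the 8 controls in both.

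The other 2 called targets were higher. HIF1A, the hypoxia-inducible factor, read 660.4 and 606.7 with the KLF5 hairpins, 348.6 and 435.6 in plko and 177.8 to 346.2 in the other controls (log2 1.09, SE 0.24, limma adjusted p = 0.0097). FASN, the fatty acid synthase, read 601.4 and 505.2 with the KLF5 hairpins and 194.3 to 329.0 with a median of 267.0 in the controls (log2 1.05, SE 0.24, limma adjusted p = 0.0137). Against plko alone neither was called (0.70 and 0.81, limma adjusted p = 0.129 and 0.115), and both calls were lost without either KLF5 library. Both hairpin libraries lay above all 8 controls for both genes, as they did for 9.31% of all genes. HBEGF, a growth factor of the EGF family, missed the threshold (-1.38, limma adjusted p = 0.0506) and read 5.0 and 3.5 with the KLF5 hairpins and 7.5 to 20.4 with a median of 11.7 in the controls. The cyclin CCND1 also missed it (-0.83, limma adjusted p = 0.0788) and read 79.6 and 77.0 with the KLF5 hairpins and 91.0 to 203.6 with a median of 148.0 in the controls. Both transcripts were below all 8 controls in both hairpin libraries, as were 6.96% of all genes.

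**Figure D3:**
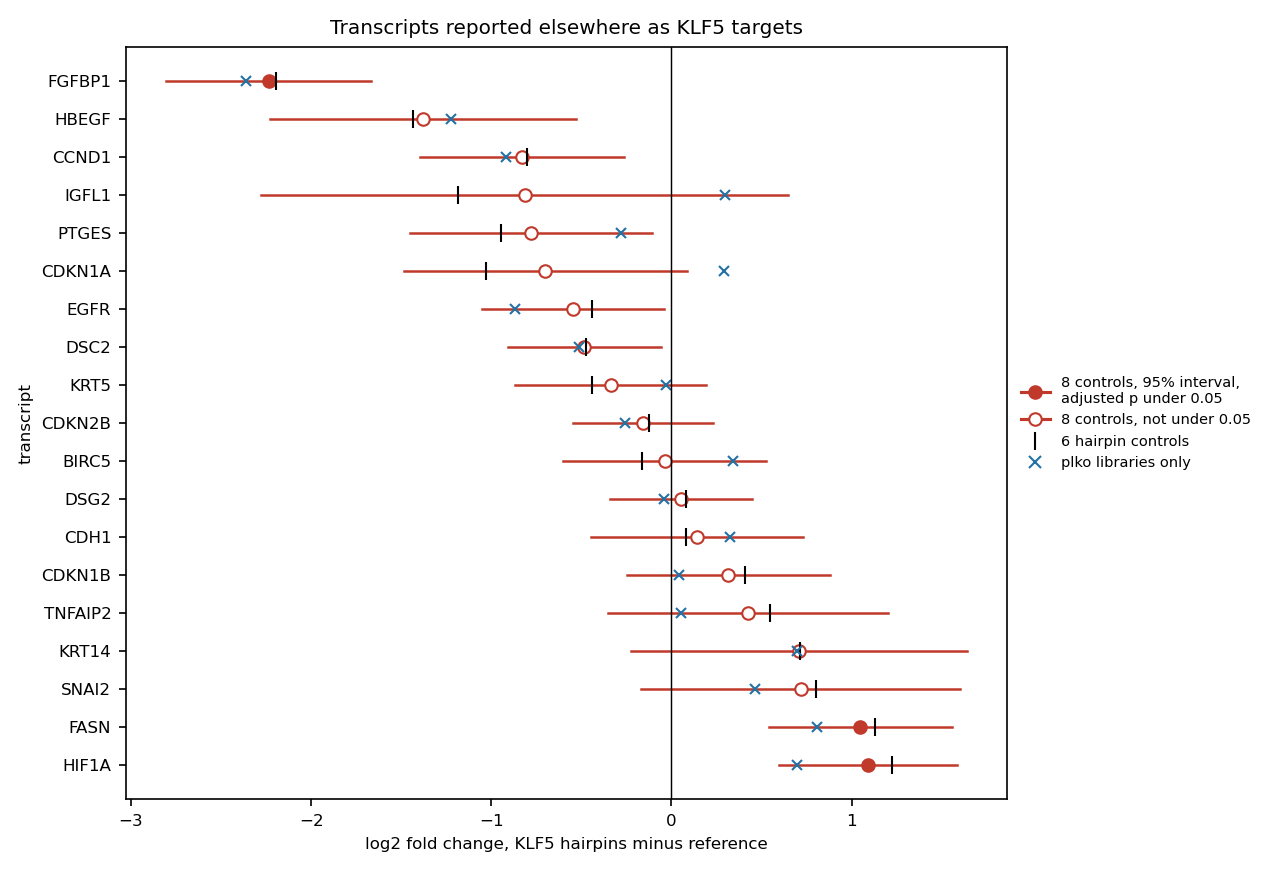
Log2 fold change with the KLF5 hairpins (horizontal axis) of the 19 tested transcripts reported elsewhere as KLF5 targets, with 95% intervals against the 8 controls, ticks for the 6 controls without plko and crosses for plko alone. FGFBP1 lies at -2.24, -2.19 and -2.36 under the 3 references, while HIF1A lies at 1.09, 1.22 and 0.70.

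Of 10 transcripts reported as KLF4 targets 8 were tested, and 2 fell and 0 rose with the KLF5 hairpins, where 3.07% of all genes fell and KLF4 itself was not called. The median log2 difference was -1.32 against 0.05 over all genes. IVL, an envelope protein of squamous cells, was at 2.1 and 3.5 with the KLF5 hairpins (3 reads in each) and 6.6 to 51.5 with a median of 20.04 in the controls (log2 -2.53, SE 0.54, limma adjusted p = 0.0082). KRT19, a simple epithelial keratin, read 587.9 and 435.2 with the KLF5 hairpins and 695.8 to 1430.5 with a median of 1211.8 in the controls (-1.11, SE 0.25, limma adjusted p = 0.0129). SPRR1B and KRT4 had differences of -2.48 (limma adjusted p = 0.21) and -1.75 (adjusted p = 0.053), and SPRR1B held only 0 and 1 reads in KLF5 1 and KLF5 2. Against plko alone IVL and KRT19 were at -1.60 and -0.60 and were not called (limma adjusted p = 0.125 and 0.194), and both calls were lost without either KLF5 library.

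In plko, 3 of the 8 reported KLF4 targets were also lower than in the other controls: CDKN1A by log2 -1.32, KRT19 by -0.68 and SPRR1B by -3.04 (limma adjusted p = 0.0035, 0.0468 and 0.0439), where 5.63% of all genes were called lower. SPRR1B held only 0 and 3 reads in plko 1 and plko 2, and 4 to 34 in the other controls. The SPRR1B call was lost with edgeR (adjusted p = 0.239) and DESeq2 (0.143), and the KRT19 call with edgeR (0.0682). With 1 library left out at a time, the KRT19 call was lost in 10 of 16 fits (limma adjusted p up to 0.21) and the SPRR1B call in 9 of 16 (log2 -3.80 to -2.28, adjusted p up to 0.524). The CDKN1A call was lost without plko 1 (-0.95, limma adjusted p = 0.208). CDKN1A, the cell cycle inhibitor p21 and also on the KLF5 target list, read 149.3 and 126.0 with the KLF5 hairpins, 86.0 and 145.6 in plko and 197.1 to 343.8 in the other controls.

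In the TGF-beta pathway, which induces KLF10 and turns KLF5 into an acetylated partner of SMADs in keratinocytes, 1 of 18 genes fell with the KLF5 hairpins and 0 rose (3.07% and 2.3% of all genes; median 0.13 against 0.05 over all genes). ID1, a dominant-negative helix-loop-helix factor, read 573.0 and 352.4 with the KLF5 hairpins and 654.3 to 1309.4 with a median of 1031.6 in the controls (log2 -1.12, SE 0.33, limma adjusted p = 0.0452). The call was lost in 9 of 16 fits that left out 1 library and against plko alone (-0.73, limma adjusted p = 0.289). Its relatives ID2 and ID3 had values of 30.6 and 29.2, and of 214.0 and 220.5, with the KLF5 hairpins and lay at or near the top of their control ranges. SKI and TGFB1 differed by 0.65 (limma adjusted p = 0.173) and 0.63 (adjusted p = 0.619).

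Of 13 immediate early genes, the first transcripts induced by growth factors, 11 were tested, 1 fell with the KLF5 hairpins and 0 rose (3.07% and 2.3% of all genes; median -0.25 against 0.05 over all genes). IER2 read 31.3 and 21.0 with the KLF5 hairpins, 57.4 and 46.5 in plko and 115.7 to 145.0 in the other controls. The log2 difference was -1.97 (SE 0.35, limma adjusted p = 0.0027), and it was still called against plko alone (-0.98, adjusted p = 0.0433), which was itself below the other controls by -1.32 (adjusted p = 0.000881). Without KLF5 2 the call was lost (-1.69, limma adjusted p = 0.0975). FOSL1 and IER3 differed by -1.03 (limma adjusted p = 0.546) and -0.79 (adjusted p = 0.214), and FOSL1 was called lower in plko (-2.33, adjusted p = 0.0442), but not with edgeR (0.162) or DESeq2 (0.104), and the call was lost in 9 of 16 fits that left out 1 library (limma adjusted p up to 0.241).

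With the RBPJ, NFIB and FOXA1 hairpins limma, edgeR and DESeq2 each called 0 genes in each of these 7 lists. Over all genes limma called 0.0277%, 0.00924% and 0.00924%, so 0 in a short list does not set it apart. From 0 to 5 genes of a list had an unadjusted limma p under 0.05, where all genes counted 5.48%, 6.66% and 5.1%. The 5 were among the 19 reported KLF5 targets with the NFIB hairpins, where 6.66% of all genes had such a p. Whether the lists respond differently to these hairpins than to the KLF5 hairpins was not tested as a list.

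The transcripts most like each KLF over the libraries were ranked by Pearson r among 6391 genes with a mean value of at least 20. These r are descriptions: the libraries share constructs and depth, and the leaders were picked as the highest of 6391 values. For KLF5 they were POGK (r = 0.90, Spearman rho 0.64, n = 16), PPP2R5A (0.87, 0.76) and TLN1 (0.87, 0.48), which fell to r of 0.63, 0.55 and 0.51 without the 2 KLF5 hairpin libraries. Over the 14 libraries without those hairpins other genes led, with CRISPLD2 (0.88, 0.78), CIC (0.86, 0.77) and PRMT1 (0.83, 0.70). For KLF16 the leaders were SCAF1 (0.83, 0.74), MED15 (0.81, 0.71) and SERINC2 (0.81, 0.78). Without the 2 KLF5 hairpin libraries their r was 0.68, 0.65 and 0.69. SCAF1 read 323.5 and 256.7 with the KLF5 hairpins and 75.0 to 156.1 in the controls. It was picked by r over these same libraries, so high values where KLF16 was high follow from the choice.

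For KLF4 the most alike were GADD45A (r = 0.87, rho 0.75), MED6 (0.85, 0.37) and PPP1R15A (0.83, 0.45). They were picked by r over these same libraries, so high values where KLF4 was high follow from the choice. Without NFIB 1 and RBPJ 2 r was 0.56, 0.64 and 0.18. GADD45A, a stress-induced growth arrest gene, read 108.1 in RBPJ 2 and 128.5 in NFIB 1, against 46.7 in RBPJ 1 and 46.4 in NFIB 2. PPP1R15A, which restores translation after stress, read 70.7 in RBPJ 2 and 76.5 in NFIB 1, against 34.1 in RBPJ 1 and 22.8 in NFIB 2. GADD45A exceeded all 8 controls in RBPJ 2 and NFIB 1 only, and PPP1R15A exceeded them there and in RBPJ 1.

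**Figure D4:**
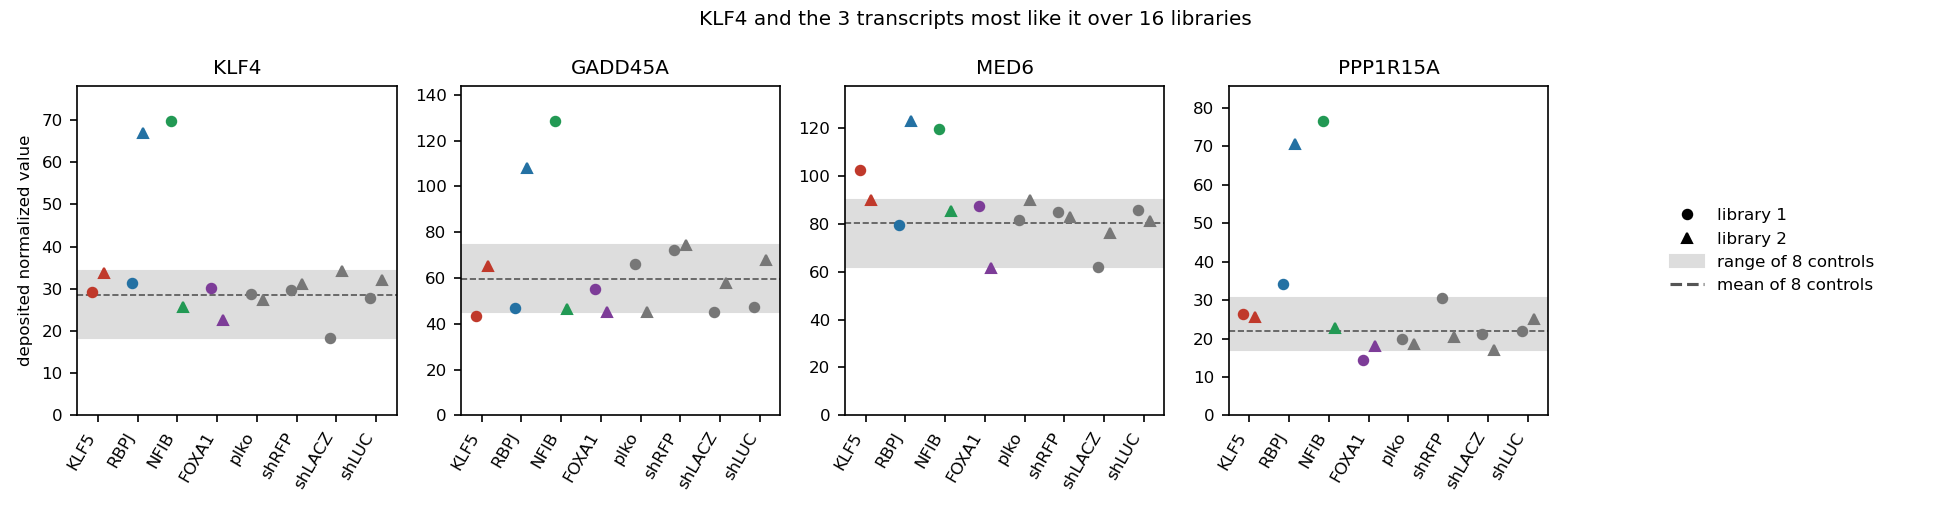
Deposited normalized signal (vertical axis) of KLF4, GADD45A, MED6 and PPP1R15A, 1 panel each, in every library by group (horizontal axis), with circles for library 1, triangles for library 2, a grey band for the range and a dashed line for the mean of the 8 controls. RBPJ 2 and NFIB 1 stand above the band in all 4 panels, with KLF4 at 66.9 and 69.7, and the other 14 libraries have KLF4 between 18.3 and 34.3. GADD45A, MED6 and PPP1R15A were picked by their r with KLF4 over these same libraries.

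For KLF6 the most alike were LAMTOR3 (r = 0.80), SNX9 (0.79) and GOLT1B (0.76), for KLF3 MKLN1 (0.84), ATP2B1 (0.83) and PAPSS1 (0.77), for KLF10 ANKRD10 (0.88), LYSMD2 (0.88) and GPATCH2 (0.87), and for KLF13 ARL6IP1 (0.78), CCDC71L (0.76) and DHX36 (0.76). The KLF3 genes kept r of 0.72 to 0.88 without the 2 libraries farthest from the KLF3 median, FOXA1 1 and KLF5 2. The KLF10 genes had r of 0.38 to 0.52 without FOXA1 2 and shRFP 1, so that their likeness rested on those libraries.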

How the data were processed

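The authors deposited 1 table of 11282 genes for all libraries, whose values are a normalized signal: reads per gene divided by a size factor for each library, called DESeq2-normalized by the title of the file. The submitters' processing notes name GRCh37 as the genome build. Aligner, counter, annotation release and molecular identifiers: not given in the sources used here. Dividing by the value of 1 read gave whole reads for 100% of the values, within 0.05 of a read. A further 2 columns match none of the described samples and were left out. Symbols were found for 11259 of the 11282 identifiers. Coordinates belong to the RefSeq promoters on GRCh38.p14, not to the counts.

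The filter asked for a value of 5 or more in 2 or more libraries; 10826 genes passed it and 456 did not. limma 3.58.1 in R 4.3.3 was fitted with a mean-variance trend on log2(value + 1) over all 16 libraries, with a factor of 5 levels (8 controls together and each target) and 6 levels for plko. Tests were 2-sided, with Benjamini-Hochberg adjustment over all genes. edgeR 4.0.16 and DESeq2 1.42.0 on the recovered reads, other pseudocounts, filters and scaling, other control sets and leaving out each library were alternatives. The code was tested on simulated data. The 2 libraries of a group differed by more than sampling noise everywhere (chi-square per degree of freedom 1.96 to 18.8), so all 16 were kept. Named genes were all members, each list gene called in the comparison described with up to 2 more of the largest differences, and the 3 most alike transcripts; genes outside that rule were chosen after their values were seen. 1 gene that the rule names is not reported here. The members and lists were chosen with earlier results of these data known.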

Additional observations from a re-analysis of the deposited data

Results flagged for a closer look

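Among the 8 control libraries, the values of each of the 7 KLF members were checked for a lone extreme library, by the gap to the nearest other library over the whole range, held against Dixon's 95% critical value. Chance flags about 1 in 20 such groups. KLF4 in shLACZ 1 was low at 18.3, where the nearest control read 27.3 (gap over range 0.561). KLF16 in plko 2 was high at 44.0, where the nearest control read 32.7 (gap over range 0.527), and without this library KLF16 was called higher with the KLF5 hairpins.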

How the results depend on the processing

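The fall of KLF5 with its own hairpins kept its direction under every alternative, and its log2 difference ran from -1.31 to -0.58 when 1 library was left out. The permutation value was -1.01 against the 6 controls without plko and -0.76 against plko alone, where the fewer arrangements cannot reach 0.05 (exact permutation p = 0.0714 and 0.333). With the KLF5 hairpins the members called were 1, against 2 with a filter of at least 20, 2 without plko and 0 with plko as the only control, and 0 to 2 without 1 library. The genes called there were 581, against 1309 without plko, 372 with plko alone and 87 to 881 without 1 library. With the RBPJ hairpins 3 genes were called, against 6 without plko, 273 with plko alone, 0 with edgeR, 17 with DESeq2 and 0 to 142 without 1 library. With the NFIB hairpins 1 gene was called, against 571 with plko alone, 0 with edgeR, 11 with DESeq2 and 0 to 2 without 1 library. With the FOXA1 hairpins 1 gene was called, against 2 with a pseudocount of 5, 2 without plko, 70 with plko alone, 3 with DESeq2 and 0 to 26 without 1 library. No KLF member was called with these 3 pairs of hairpins under any alternative. Between the KLF5 and RBPJ hairpins 0 members were called, against 1 with a filter of at least 20, 1 with DESeq2 and 0 to 1 without 1 library. Between the KLF5 and NFIB hairpins 1 was called, and 0 to 1 without 1 library. Between the KLF5 and FOXA1 hairpins 2 were called, against 1 with edgeR and 0 to 2 without 1 library. The cause of these changes was not tested. Leaving out a library also lets fewer samples enter the fit. Over 28 pairs of groups the correlation of same-numbered deviations ran from -0.195 to 0.216, had a median of 0.026 and exceeded 0.1 in 3. Libraries 1 and 2 of a group differ in shRNA identifier, so these values cannot decide whether replicate numbers pair the libraries. A replicate block gave 579, 3, 1 and 1 genes called with the KLF5, RBPJ, NFIB and FOXA1 hairpins, and the same numbers of members called in each comparison. Depth limits the rarer members, and KLF10, KLF16 and KLF13 had as few as 7, 12 and 14 reads in a library.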
